A study of Mus musculus with 66 samples.

Results

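The 10 genes described here, Ankrd1, Cyr61, Ctgf, Amotl1, Amotl2, Lats2, Yap1, Wwtr1, Tead1 and Axl, are known targets or core members of the YAP-TEAD transcription module, and they were chosen by name, with earlier results of these data known. All 10 were among the 15856 genes with polyadenylation (pA) sites measured by 3'READS, with 39 of its 59578 sites, and 6 of them (Amotl1, Amotl2, Axl, Ctgf, Tead1 and Wwtr1) were among the 9999 genes of the RNA-seq table. 3'READS sequences the ends of polyadenylated RNAs, so that each read marks a pA site, whereas the RNA-seq libraries were rRNA-depleted, strand-specific and counted over coding regions.

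The cells were C2C12, an established line of mouse myoblasts, transfected for 48 h with 50 nM siRNA against Paf1 (siPaf1), Cdc73 (siCdc73) or Ski8 (siSki8, gene Wdr61), subunits of the Paf1 complex that travels with RNA polymerase II, or with a control siRNA (siCtrl, named siNS in the labels). The cells were unmodified apart from the siRNA. Each assay had 7 libraries: 2 each of siCtrl, siPaf1 and siCdc73, from batch 1 and batch 2, and 1 of siSki8, from batch 2. Nothing in the labels says whether batches were separate cultures, so that the p-values measure a spread between these libraries that may be technical. This spread is shared in part across genes, as described below. ChIP-seq libraries of the series were not analysed here.

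YAP (Yap1) and TAZ (Wwtr1) are coactivators that enter the nucleus when the Hippo kinases are inactive and bind DNA through TEAD factors such as Tead1. Lats2 is one of the kinases that phosphorylate YAP and TAZ and hold them in the cytoplasm, and the angiomotins Amotl1 and Amotl2 bind YAP at cell junctions. Lats2 and Amotl2 are themselves YAP-TEAD targets and act as negative feedback. Ctgf and Cyr61 encode secreted matricellular proteins and are the most used readouts of the module, Axl encodes a receptor tyrosine kinase, and Ankrd1 encodes a muscle ankyrin repeat protein. In myoblasts YAP is known to favour proliferation over differentiation.

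TEAD factors recognise GGAATG, and this motif was searched on both strands (GGAATG or CATTCC) in the 250 bases before the annotated start sites of RefSeq (build GRCm38.p6). It was found for 6 of the 8 members with a listed promoter (Ankrd1, Cyr61, Axl, Amotl2, Yap1 and Wwtr1) and in 12.6% of all 32851 listed promoters. Members were counted by gene, with a match in any listed promoter, and the whole list by promoter, so that the units differ. Amotl1 and Lats2 had no match in this window, and Ctgf and Tead1 had no listed promoter. A match describes letters only and is not evidence of binding. The stretches below show where the module's recognition letters lie, with the motif in capitals, written 5′ to 3′ on the strand of the gene. They are chr19:36120032-36120071 and chr19:36119945-36119984 (Ankrd1, minus strand), chr3:145650066-145650105 (Cyr61, minus), chr9:102717722-102717761 (Amotl2, plus), chr7:25788944-25788983 (Axl, minus), chr9:8004715-8004754 (Yap1, minus) and chr3:57576024-57576063 (Wwtr1, minus).
Ankrd1, motif starting 210 bases before the start: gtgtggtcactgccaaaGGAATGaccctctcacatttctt
Ankrd1, motif starting 123 bases before the start: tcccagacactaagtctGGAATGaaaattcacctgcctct
Cyr61, 103 bases before the start: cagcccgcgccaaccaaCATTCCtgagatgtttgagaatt
Amotl2, 65 bases before the start: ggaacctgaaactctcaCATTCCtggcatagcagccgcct
Axl, 233 bases before the start: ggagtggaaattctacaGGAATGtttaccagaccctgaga
Yap1, 141 bases before the start: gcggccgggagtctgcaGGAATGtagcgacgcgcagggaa
Wwtr1, 136 bases before the start: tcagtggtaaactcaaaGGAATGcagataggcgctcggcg

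The libraries held 2796693 to 8160386 RNA-seq gene counts and 5302728 to 14340927 3' end reads. The targeted genes were lowest under their own siRNA: RNA-seq Paf1 stood at 20.3 and 31.1 CPM (counts per M reads, with library sizes scaled by TMM factors) in siPaf1 against 107 and 160 in siCtrl, Cdc73 at 14.2 and 22.0 in siCdc73 against 109 and 98.4, and Wdr61 at 5.97 in siSki8 against 49.8 and 129. The siPaf1 library of batch 2 stood apart in 3'READS, with 271 genes more than 20-fold above every other library (1.04% of its reads), none of them a member. Of the 4 myoblast markers, Des and Myf5 were present in both assays. However, Myod1 was at 0 to 0.529 CPM in 3'READS and was not among the RNA-seq genes, and Pax7 was at 0 to 0.651 CPM in 3'READS and 2.04 to 47.5 CPM in RNA-seq. The summed 3'READS level of 8 mitosis markers was 2053 to 2795 CPM in siCtrl, 448 to 716 in siPaf1, 492 to 1040 in siCdc73 and 2007 in siSki8, and 7 of the 8 genes fell in each of siPaf1 and siCdc73 with the batch term described next. The summed level of myotube markers, 11 of 12 of which were in the table, was 180 to 333 CPM in siCtrl, 280 to 616 in siPaf1, 125 to 367 in siCdc73 and 330 in siSki8. The part of these shifts in the members' levels was not tested. In bulk RNA, fewer cells of a type and less RNA per cell cannot be told apart.

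The main test was edgeR's quasi-likelihood test, its p-values adjusted by the Benjamini-Hochberg method over all genes of an assay, with a threshold of 0.05. The study's methods name no batch term, and the main fit had none. By group alone it called 0 genes in every RNA-seq and 3'READS comparison (0% of 6521 and 12579 genes), members included, although an unadjusted p under 0.05 was reached by 572 higher and 584 lower RNA-seq genes after siPaf1 and by 648 and 729 after siCdc73. At an unadjusted p under 0.05 the same fit found Amotl2 in RNA-seq after siPaf1 and siCdc73. In 3'READS it found Amotl2 and Lats2 after siPaf1, and Amotl2, Lats2 and Ctgf after siCdc73. Of all 3'READS genes, 891 higher and 812 lower reached this after siPaf1, and 870 and 1059 after siCdc73. DESeq2, also without a batch term, called 159 higher and 210 lower RNA-seq genes after siPaf1 and 240 and 278 after siCdc73, among them 1 member, Amotl2 after siCdc73, and no member in another comparison of either assay. The labels give each library's batch, and a batch term in the fit lowered the common biological coefficient of variation from 0.397 to 0.179 in RNA-seq and from 0.515 to 0.247 in 3'READS. Below, "rose" and "fell" are used for calls with the batch term, and the adjusted p without it is given beside each member's call against siCtrl. The SE of a log2 fold change was taken from the same test. Where leaving out 1 library leaves a group with a single library, as in siSki8 throughout, that library is assumed to vary like those of the other groups. A further rule on RNA-seq reads pooled by group, over 1.4-fold with Fisher's exact p under 0.01, takes no account of the spread between libraries. It passed 40.8% of all genes after siPaf1, 46.4% after siCdc73, 43.2% after siSki8 and 38.2% in siPaf1 against siCdc73, and its calls are named apart from those of edgeR.

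With the batch term, 1 of 6 members was called in RNA-seq after siPaf1 (32.5% of all genes tested were called) and 2 of 6 after siCdc73 (39.9%). In 3'READS 3 of 10 members were called after siPaf1 (18.8% of all genes) and 4 of 10 after siCdc73 (22.5%). The members' shares lay below those of all genes in RNA-seq and above them in 3'READS, on so few genes that nothing particular to the members is read from them. The counts depend on single libraries: in 3'READS after siCdc73, 7 of 10 members were called without the siPaf1 library of batch 1 (31.2% of all genes) or of batch 2 (34.4%), and 2 of 10 without any siCtrl or siCdc73 library (11.1% to 15.8%). After siPaf1 0 of 10 were called without the siCtrl library of batch 1 (14.8% of all genes), and 1 of 10 without the siCtrl library of batch 2 (6.24%) or the siPaf1 library of batch 1 (24.3%). In RNA-seq 3 of 6 were called after siPaf1 without the siPaf1 library of batch 1 (36.3%). The members moved in no common direction. In 3'READS 2 members rose and 1 fell after siPaf1, and 3 rose and 1 fell after siCdc73, and the median log2 fold change of the 10 was -0.08 and 0.23, beside 0.08 and -0.02 over all genes. In RNA-seq the medians of the 6 were 0.23 after siPaf1 and 0.08 after siCdc73, beside 0.02 and -0.02. Both libraries of a knockdown lay above, or both below, both siCtrl libraries for many genes. In RNA-seq this held for 46.3% of all genes tested after siPaf1 and 51.2% after siCdc73. In 3'READS it held for 42.8% and 46.5%. The members' shares were lower, except in 3'READS after siCdc73. Such a separation, described for single members below, is therefore not particular to them. These shares are for each knockdown taken singly.

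**Figure D1:**
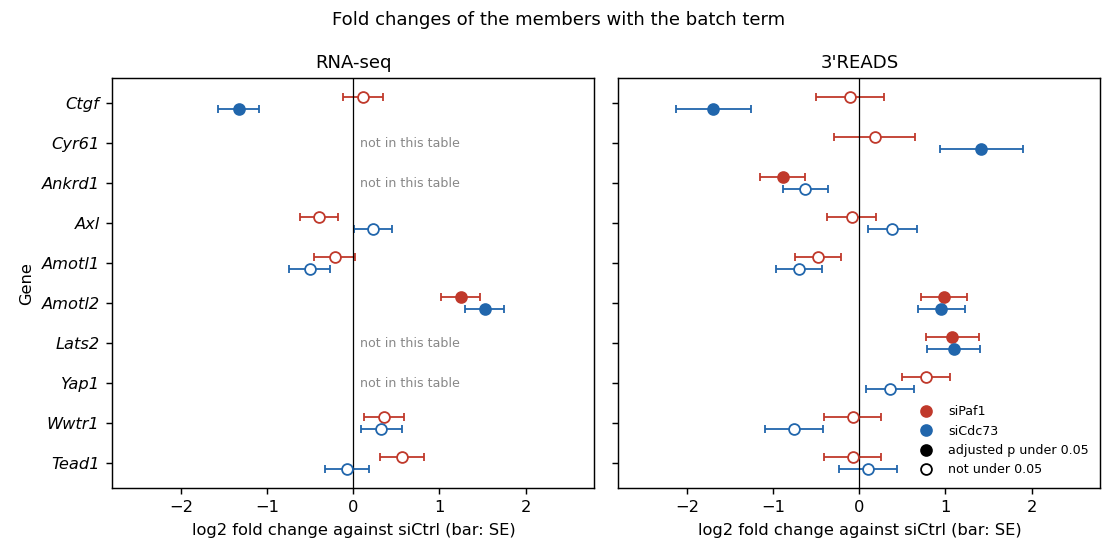
Log2 fold change of each member against siCtrl (x axis, with the SE as bar) in RNA-seq (left) and 3'READS (right), fitted with the batch term, for siPaf1 (red) and siCdc73 (blue); filled points have an adjusted p under 0.05. Amotl2 lies right of 0 in both panels, Lats2 right of 0 in 3'READS, Cyr61 right of 0 and Ctgf left of 0 for siCdc73, and Ankrd1 left of 0 for siPaf1, while the open points of the other members lie on both sides of 0.

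Ctgf, the secreted connective tissue growth factor, fell after siCdc73 in both assays. In RNA-seq it stood at 234 (batch 1) and 754 CPM (batch 2) in siCtrl, 307 and 685 in siPaf1, 124 and 225 in siCdc73, and 768 in siSki8, and pairs of values are given in this batch order from here on. Both siCdc73 libraries lay below both siCtrl libraries, and the siPaf1 libraries lay between the siCtrl values. The log2 fold change after siCdc73 was -1.33 (SE 0.24, adjusted p = 4.61e-05, 0.251 without the batch term), and leaving out any library kept the call (-1.63 to -0.99). In 3'READS Ctgf stood at 15.2 and 21.3 CPM in siCtrl, 12.5 and 21.3 in siPaf1, 8.25 and 3.41 in siCdc73, and 18.8 in siSki8. The siCdc73 libraries were again the lowest of the 7, with a log2 fold change of -1.69 (SE 0.43, adjusted p = 0.0109, 0.249 without the batch term). Without the siCdc73 library of batch 2 it was -0.81 (adjusted p = 0.305).

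Cyr61, the second matricellular target and a close relative of Ctgf, moved the other way after siCdc73. It was measured in 3'READS only, at a low level: 6.15 and 1.99 CPM in siCtrl, 3.23 and 4.63 in siPaf1, 13.9 and 7.52 in siCdc73, and 4.21 in siSki8. Both siCdc73 libraries lay above the other 5. On the log2 scale it rose by 1.42 (SE 0.48, adjusted p = 0.0443, 0.381 without the batch term). These values rest on 21 to 106 reads per library. Without the siCtrl library of batch 2 the log2 fold change was 0.84 (adjusted p = 0.419), without the siCdc73 library of batch 1 it was 1.21 (adjusted p = 0.203), and from sites of the last exon alone it was 0.52 (adjusted p = 0.559).

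Ankrd1, which is both a YAP-TEAD target and a gene of striated muscle, was highest in siSki8 and lower in both other knockdowns than in siCtrl of the same batch. Its level was 326 and 703 CPM in siCtrl, 192 and 348 in siPaf1, 220 and 435 in siCdc73, and 943 in siSki8, all at 1 pA site (mm9 chr19:36186442, minus strand) 7892 bases from the annotated start and just past the annotated end. Batch 2 of each knockdown lay above batch 1 of siCtrl. Ankrd1 fell after siPaf1 (log2 fold change -0.89, SE 0.26, adjusted p = 0.0273, 0.520 without the batch term). After siCdc73 the value was -0.63 (SE 0.26, adjusted p = 0.0983), which passed the threshold without the siPaf1 library of batch 1 (-0.63, adjusted p = 0.0228) or batch 2 (-0.63, adjusted p = 0.0219). The siPaf1 call was lost without the siCtrl library of batch 1 (-0.99, adjusted p = 0.100) or of batch 2 (-0.80, adjusted p = 0.314) or the siPaf1 library of batch 2 (-0.79, adjusted p = 0.0667).

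Axl, the receptor tyrosine kinase, was called in neither assay against siCtrl, except in RNA-seq after siPaf1 when the siPaf1 library of batch 1 was left out (-0.57, adjusted p = 0.0319). In 3'READS it stood at 245 and 281 CPM in siCtrl, 254 and 242 in siPaf1, 422 and 276 in siCdc73, and 323 in siSki8, with the siCdc73 library of batch 1 above the rest. In RNA-seq the values were 1102 and 586 CPM in siCtrl, 955 and 386 in siPaf1, 1311 and 677 in siCdc73, and 819 in siSki8. Batch 1 was higher than batch 2 in all 3 groups with both batches.

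**Figure D2:**
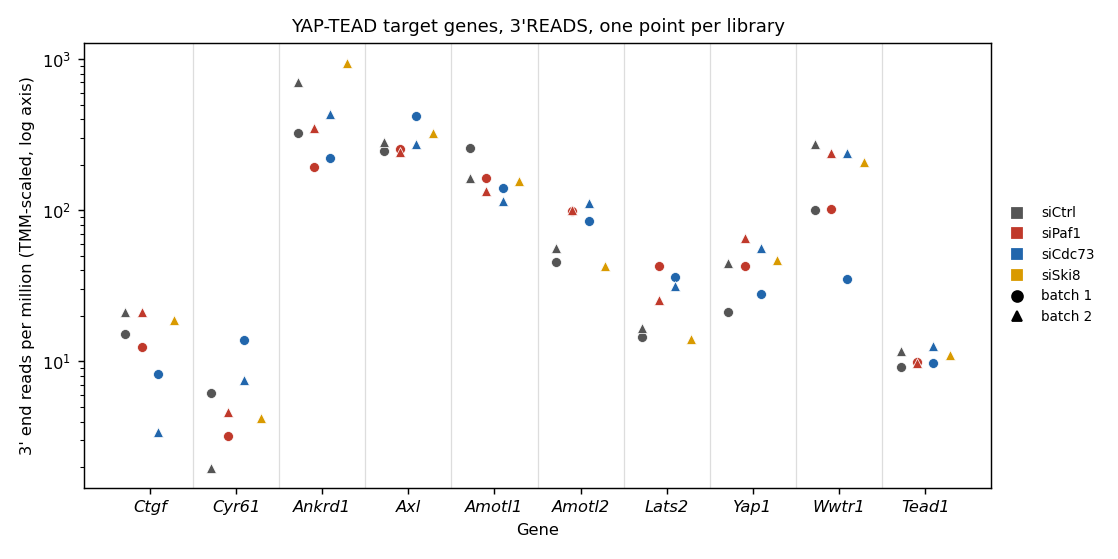
3'READS level of the 10 members in each of the 7 libraries (y axis, TMM-scaled CPM of 3' end reads on a log axis), coloured by siRNA, with circles for batch 1 and triangles for batch 2. Amotl2 and Lats2 are higher in all siPaf1 and siCdc73 libraries than in siCtrl, Ctgf is lowest and Cyr61 highest in siCdc73, and Wwtr1 differs more between batches than between siCtrl and siPaf1 of the same batch.

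Amotl2, the angiomotin-like feedback inhibitor, rose after siPaf1 and siCdc73 in both assays, the only one of the 6 members in both tables to do so. In RNA-seq it stood at 313 and 159 CPM in siCtrl, 660 and 428 in siPaf1, 779 and 532 in siCdc73, and 97.4 in siSki8. All 4 libraries of siPaf1 and siCdc73 lay above both siCtrl libraries, and siSki8 lay below them. The log2 fold change was 1.25 after siPaf1 (SE 0.23, adjusted p = 8.18e-05, 0.245 without the batch term) and 1.52 after siCdc73 (SE 0.23, adjusted p = 4.05e-06, 0.149 without the batch term), and both calls held with each library left out. After siSki8 it was -0.84 (SE 0.30, adjusted p = 0.0927).

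In 3'READS, where all Amotl2 reads ended at 1 site just past the annotated end of the gene (mm9 chr9:102635746, plus strand), the level was 45.5 and 56.0 CPM in siCtrl, 99.4 and 99.9 in siPaf1, 85.1 and 112 in siCdc73, and 42.8 in siSki8. Again all 4 knockdown libraries lay above siCtrl. On the log2 scale the rise was 0.98 after siPaf1 (SE 0.27, adjusted p = 0.0193, 0.344 without the batch term) and 0.95 after siCdc73 (SE 0.27, adjusted p = 0.0194, 0.301 without the batch term). The siPaf1 call was lost without the siCtrl library of batch 1 (0.93, adjusted p = 0.139) or batch 2 (1.03, adjusted p = 0.153) or the siPaf1 library of batch 1 (0.81, adjusted p = 0.0521). The siCdc73 call was lost without any of the siCtrl or siCdc73 libraries (0.81 to 1.07, adjusted p of 0.0522 to 0.202).

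Amotl1, its paralogue, was called by edgeR in neither assay. In 3'READS it stood at 259 and 164 CPM in siCtrl, 163 and 135 in siPaf1, 139 and 115 in siCdc73, and 156 in siSki8, so that both knockdowns lay below both siCtrl libraries. The log2 fold change after siCdc73 was -0.71 (SE 0.27, adjusted p = 0.0715), which passed without the siPaf1 library of batch 1 (-0.70, adjusted p = 0.0148) or batch 2 (-0.70, adjusted p = 0.0144). In RNA-seq the values were 165 and 54.3 CPM in siCtrl, 134 and 49.9 in siPaf1, 113 and 38.9 in siCdc73, and 46.3 in siSki8, with a larger gap between batches than between groups, and here too Amotl1 passed after siCdc73 without the siPaf1 library of batch 1 (-0.49, adjusted p = 0.0348) or batch 2 (-0.51, adjusted p = 0.0262) or with library size alone as the scaling (-0.68, adjusted p = 0.0252). The rule on pooled reads passed it after siCdc73 (-0.51) and siSki8 (-1.65).

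**Figure D3:**
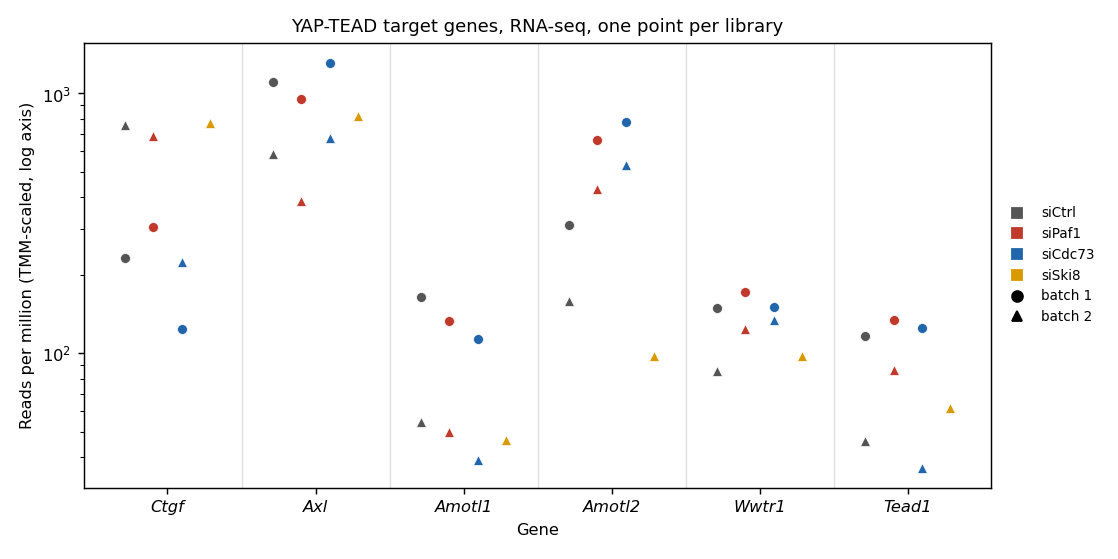
RNA-seq level of the 6 members in that table in each of the 7 libraries (y axis, TMM-scaled CPM on a log axis), coloured by siRNA, with circles for batch 1 and triangles for batch 2. Amotl2 is higher in the 4 siPaf1 and siCdc73 libraries than in siCtrl and is lowest in siSki8, and Ctgf is lowest in siCdc73. All members but Ctgf, Amotl2 included, are higher in batch 1 than in batch 2 of the same group.

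Lats2, the kinase that phosphorylates YAP and TAZ, rose in total 3' end reads after siPaf1 and siCdc73, but its rise lay at an intronic pA site. Its total was 14.4 and 16.5 CPM in siCtrl, 43.0 and 25.3 in siPaf1, 36.04 and 31.6 in siCdc73, and 13.99 in siSki8. All 4 libraries of siPaf1 and siCdc73 lay above the other 3. On the log2 scale the rise was 1.08 after siPaf1 (SE 0.31, adjusted p = 0.0231, 0.330 without the batch term) and 1.10 after siCdc73 (SE 0.31, adjusted p = 0.0183, 0.281 without the batch term). Both calls were lost without the siCtrl library of batch 1 (0.75 and 0.79, adjusted p = 0.286 and 0.242). The siPaf1 call was also lost without the siPaf1 library of batch 1 (0.70, adjusted p = 0.149), and the siCdc73 call without the siCdc73 library of batch 2 (1.02, adjusted p = 0.108).

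Lats2 lies on the minus strand of chromosome 14 (mm9 chr14:58308499-58364960 in GENCODE vM1, 8 exons). Nearly all of its reads ended at a site in intron 2 (chr14:58341026), 23934 bases from the start and after the start codon, or at the end of exon 8 (chr14:58308499), 56461 bases from the start. An RNA that ends in intron 2 lacks the exons after it. The 30 bases that end at each site are shown because each holds a polyadenylation signal (AATAAA or ATTAAA, in capitals), starting 21 and 19 bases before the cleavage position. Such a signal was found in the 40 bases before the site at 60.8% of all 16766 intronic sites and at 58.6% of all 38550 last exon sites.
Lats2 intron 2 site, chr14:58341026-58341055: atatggcctAATAAAacgcctttgtgctta
Lats2 exon 8 site, chr14:58308499-58308528: cacaatttattATTAAAactttaaagccta

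The intronic site held 34 and 19 reads in siCtrl, 292 and 292 in siPaf1, 140 and 353 in siCdc73, and 43 in siSki8. Scaled to library size these were 5.10 and 1.80 CPM in siCtrl, 37.7 and 19.3 in siPaf1, 30.4 and 25.1 in siCdc73, and 4.89 in siSki8. The exon 8 site went the other way in level, with 9.30 and 14.7 CPM in siCtrl, 5.29 and 6.02 in siPaf1, 5.65 and 6.46 in siCdc73, and 9.10 in siSki8. The 4 siPaf1 and siCdc73 libraries did not overlap siCtrl at either site. Counted over the last exon alone, the log2 fold change of Lats2 was -1.01 after siPaf1 (adjusted p = 0.0666) and -0.90 after siCdc73 (adjusted p = 0.0982) with the batch term, so that the direction of the gene's change turned on which site was counted.

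**Figure D4:**
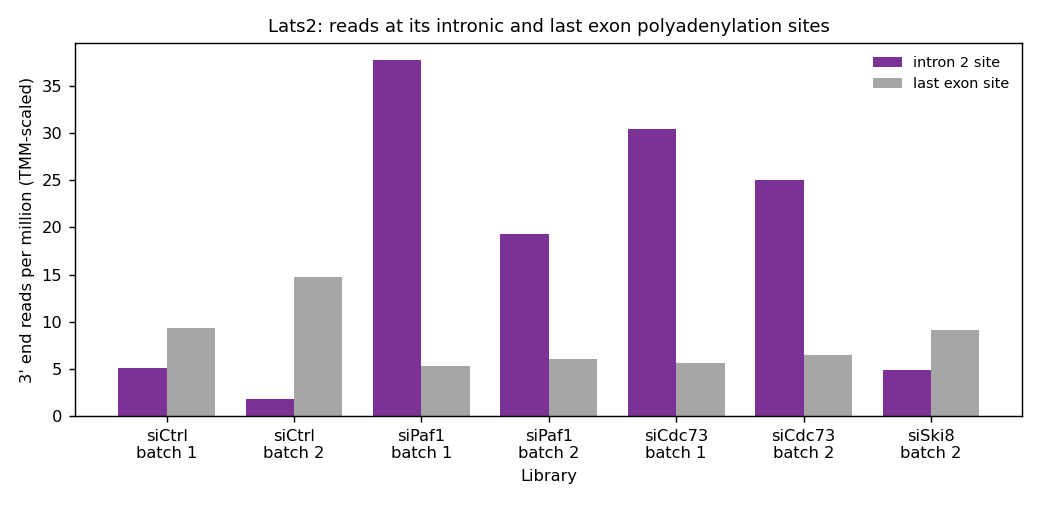
Reads at the intron 2 site (purple) and the exon 8 site (grey) of Lats2 in each of the 7 3'READS libraries (y axis, TMM-scaled CPM of 3' end reads, from 0). The intron 2 site stands at 19.3 to 37.7 in siPaf1 and siCdc73 and at 1.80 to 5.10 in siCtrl and siSki8, while the exon 8 site is lower in siPaf1 and siCdc73.

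The share of Lats2 reads at the intronic site was 35.4% (Wilson 95% interval 26.6 to 45.4, counting error only) and 10.9% (7.06 to 16.3) in siCtrl. It was 87.7% (83.7 to 90.8) and 76.2% (71.7 to 80.2) in siPaf1, 84.3% (78.0 to 89.1) and 79.5% (75.5 to 83.0) in siCdc73, and 35.0% (27.1 to 43.7) in siSki8. The siCtrl libraries differed from each other beyond counting error, and all 4 siPaf1 and siCdc73 libraries lay above both. The p-values with the batch term given next rest mainly on a spread shared across genes, not on that of Lats2 alone. The log2 ratio of upstream to last exon reads, compared between knockdown and siCtrl in 1 model over both site classes, changed by 4.09 after siPaf1 (SE 0.67, adjusted p = 5.33e-08) and 4.05 after siCdc73 (SE 0.68, adjusted p = 8.77e-08) with the batch term. The adjusted p was 0.0634 and 0.0560 without it, and the latter was 0.0346 when the siPaf1 library of batch 1 was left out. Both calls with the batch term held with each library left out.

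This ratio (CDS-APA, sites upstream of the last exon against the last exon) could be tested for 3 members, Lats2, Tead1 and Cyr61, among 1766 genes. Without the batch term it called 2.38% of the genes after siPaf1 and 4.13% after siCdc73, and 0 of the 3 members. Lats2 was at an unadjusted p under 0.05 after siPaf1, and Lats2 and Tead1 were after siCdc73. Of all genes, 297 higher and 62 lower ratios reached this after siPaf1, and 315 and 40 after siCdc73. With the batch term it called 23% of all genes and 1 of the 3 members after siPaf1, and 23.2% and 2 of the 3 after siCdc73. The median change over all genes was 0.61 and 0.84 in log2 ratio.

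Tead1, a DNA-binding partner of YAP and TAZ, shifted towards upstream sites after siCdc73. Reads at its sites in intron 1 (chr7:119847416, plus strand) and intron 2 (chr7:119950584) made up, of the reads at sites with at least 5% of the gene's reads, 5.45% (Wilson 95% interval 1.87 to 14.9) and 10.9% (6.50 to 17.8) in siCtrl, 13.0% (7.02 to 23.0) and 0.775% (0.137 to 4.26) in siPaf1, 43.2% (28.7 to 59.1) and 37.0% (29.98 to 44.7) in siCdc73, and 16.9% (10.5 to 26.0) in siSki8. Both siCdc73 libraries lay above the other 5. The log2 ratio changed by 2.58 after siCdc73 (SE 0.88, adjusted p = 0.0188, 0.240 without the batch term). Of these sites the 2 siCdc73 libraries used different ones: batch 1 had 16 reads at that of intron 1 and 0 at that of intron 2, and batch 2 had 16 and 44. A further intron 1 site (chr7:119824031), left out by the 5% minimum, held 1 and 0 reads in siCtrl and 5 and 8 in siPaf1. It held 1 and 9 in siCdc73 and 1 in siSki8. At the counted sites siPaf1 of batch 2 had 1 upstream read. The call was lost without the siCtrl library of batch 1 (1.75, adjusted p = 0.391) or the siCdc73 library of batch 1 (2.76, adjusted p = 0.0737) or batch 2 (2.34, adjusted p = 0.312).

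The total level of Tead1 was called by edgeR in no comparison of all libraries. In 3'READS it stood at 9.15 and 11.7 CPM in siCtrl, 9.94 and 9.72 in siPaf1, 9.77 and 12.6 in siCdc73, and 11.03 in siSki8. In RNA-seq it stood at 117 and 45.9 CPM in siCtrl, 135 and 86.5 in siPaf1, 125 and 36.4 in siCdc73, and 61.7 in siSki8. Without the siPaf1 library of batch 1 it passed in RNA-seq after siPaf1 (1.03, adjusted p = 0.00147) and in siPaf1 against siCdc73 (1.11, adjusted p = 0.00120), the latter also with library size alone (0.82, adjusted p = 0.0138). The rule on pooled reads passed it in RNA-seq after siPaf1 (0.54), after siSki8 (-0.80) and in siPaf1 against siCdc73 (0.50). The siSki8 library was nevertheless above siCtrl of its own batch (61.7 against 45.9 CPM).

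Of the 364 reads of Cyr61, 157 ended at a site in intron 1 (chr3:145312505, minus strand), 444 bases from the start, and 132 at the end of exon 5 (chr3:145309940). The intronic site had neither AATAAA nor ATTAAA in the 40 bases before it, whereas the exon 5 site had AATAAA. The 30 bases before each are shown for this contrast, with the signal in capitals.
Cyr61 intron 1 site, chr3:145312505-145312534: ggggtggtcaggctgccgggacgcgatcga
Cyr61 exon 5 site, chr3:145309940-145309969: taatcatttAATAAAgaaatatttacctaa

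The intron 1 site of Cyr61 held 13 and 2 reads in siCtrl, 8 and 34 in siPaf1, 46 and 50 in siCdc73, and 4 in siSki8. Its level was 1.95 and 0.189 CPM in siCtrl and 9.99 and 3.55 in siCdc73, and that of the exon 5 site was 1.95 and 1.51 in siCtrl and 1.95 and 2.41 in siCdc73. The share of reads upstream of the last exon was 44.8% (Wilson 95% interval 28.4 to 62.5) and 10.5% (2.94 to 31.4) in siCtrl, 53.3% (30.1 to 75.2) and 56.7% (44.1 to 68.4) in siPaf1, 79.3% (67.2 to 87.7) and 50.0% (40.4 to 59.6) in siCdc73, and 10.8% (4.29 to 24.7) in siSki8. These shares count only sites with at least 5% of the gene's reads, which left 8 upstream and 7 last exon reads in siPaf1 of batch 1. So counted, the siPaf1 and siCdc73 libraries lay above both siCtrl libraries and overlapped each other. With all sites counted, siPaf1 of batch 1 lay below siCtrl of batch 1. The change in log2 ratio after siCdc73 was 2.12 (SE 1.13) and did not pass the test (adjusted p = 0.171).

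**Figure D5:**
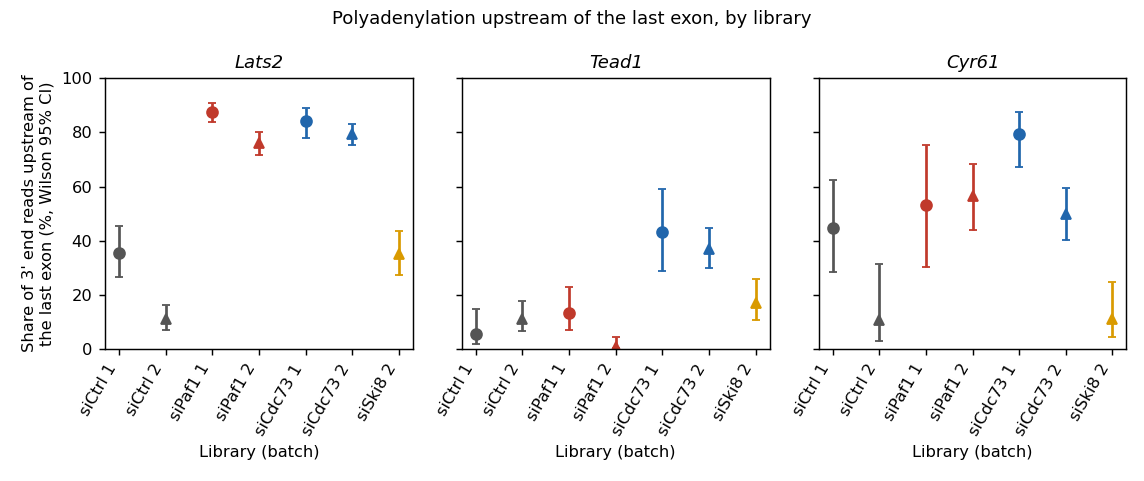
Share of 3' end reads at sites upstream of the last exon (y axis, percent, with Wilson 95% intervals) for Lats2, Tead1 and Cyr61 in each of the 7 libraries, coloured by siRNA as in the level plots, with circles for batch 1 and triangles for batch 2. Lats2 is at 76.2% to 87.7% in siPaf1 and siCdc73 and at 10.9% to 35.4% in siCtrl and siSki8, Tead1 is highest in siCdc73, and the intervals of Cyr61 are wide.

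Of the remaining members, Ankrd1, Amotl1 and Amotl2 had 1 pA site each. Wwtr1 had a site in intron 2 with 122 of its 13376 reads, under the 5% minimum, so that it was not tested. This site held 10 and 6 reads in siCtrl, 8 and 5 in siPaf1, 13 and 79 in siCdc73, and 1 in siSki8. Its level was 1.50 and 0.567 CPM in siCtrl and 2.82 and 5.61 in siCdc73. The choice between the 2 main sites of the last exon (3'UTR-APA) could be tested for Axl, Ctgf, Cyr61 and Yap1 and called none of the 4 over all libraries, with or without the batch term. With the batch term 6.79% of 4567 genes were called after siPaf1 and 4.29% after siCdc73, and without it 0%. At an unadjusted p under 0.05, Ctgf passed after siCdc73 in both fits, and Ctgf and Axl passed after siPaf1 with the batch term. Of all genes, 578 higher and 231 lower ratios reached this after siPaf1 with the batch term, and 568 and 106 after siCdc73. Without that term 165 and 27 reached it after siCdc73. Ctgf came nearest to the threshold: its proximal site (chr10:24317465) held 3 of 38 reads in the siCdc73 library of batch 1 and 13 of 48 in batch 2, against 3 of 101 and 6 of 225 in siCtrl, a change in log2 ratio of 2.65 (SE 0.86, adjusted p = 0.0539), which passed without the siPaf1 library of batch 1 (2.70, adjusted p = 0.0356) or batch 2 (2.66, adjusted p = 0.0384).

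Yap1, the coactivator itself, was measured in 3'READS at 21.3 and 44.5 CPM in siCtrl, 42.5 and 65.9 in siPaf1, 28.0 and 55.9 in siCdc73, and 47.0 in siSki8. Batch 2 was higher than batch 1 in every group with both batches, and within each batch siPaf1 was the highest of these 3 groups. The log2 fold change after siPaf1 was 0.77 (SE 0.28, adjusted p = 0.0620), and 0.97 (adjusted p = 0.0386) without the siPaf1 library of batch 2. Wwtr1 (TAZ) stood at 101 and 275 CPM in siCtrl, 101 and 240 in siPaf1, 35.2 and 240 in siCdc73, and 209 in siSki8. In RNA-seq it stood at 149 and 85.9 CPM in siCtrl, 172 and 124 in siPaf1, 151 and 134 in siCdc73, and 98.1 in siSki8. The low 3'READS value of the siCdc73 library of batch 1 thus had no counterpart in RNA-seq, and Wwtr1 was called by edgeR in no comparison of all libraries. The rule on pooled reads passed it in RNA-seq after siSki8 (-0.64), where its level was above siCtrl of the same batch (98.1 against 85.9 CPM). In 3'READS it passed after siCdc73 without the siPaf1 library of batch 1 (-0.82, adjusted p = 0.00488) or batch 2 (-0.82, adjusted p = 0.00517) or the siCdc73 library of batch 2 (-1.58, adjusted p = 0.00751), and in siPaf1 against siCdc73 without the siPaf1 library of batch 2 (1.12, adjusted p = 0.0131) or the siCdc73 library of batch 2 (1.49, adjusted p = 0.0235).

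siPaf1 and siCdc73 were compared directly. This contrast was taken from the fit of all 7 libraries, so that siCtrl and siSki8 enter its spread and scaling without being 1 of the groups compared. Without the batch term no member was called (0% of all genes in each test). At an unadjusted p under 0.05, still without that term, Ctgf passed in 3'READS (beside 758 higher and 540 lower genes). Tead1 passed in the CDS-APA test (beside 31 higher and 86 lower ratios), also without that term. With it, 2 of 6 members were called in RNA-seq (28.2% of all genes), 1 of 10 in 3'READS (14.4%), 0 of 4 in 3'UTR-APA (2.08%, with none at an unadjusted p under 0.05) and 1 of 3 in CDS-APA (5.1%). Ctgf was higher in siPaf1 than in siCdc73, by a log2 fold change of 1.44 in RNA-seq (SE 0.24, adjusted p = 4.28e-05) and 1.59 in 3'READS (SE 0.43, adjusted p = 0.0238). The 3'READS call was lost without the siPaf1 library of batch 2 (1.07, adjusted p = 0.0905) or the siCdc73 library of batch 2 (0.68, adjusted p = 0.524). Axl was lower in siPaf1 in RNA-seq (-0.63, SE 0.22, adjusted p = 0.0305), a call lost with library size alone as the scaling (-0.44, adjusted p = 0.125) and without the siPaf1 library of batch 2 (-0.45, adjusted p = 0.121) or the siCdc73 library of batch 1 (-0.72, adjusted p = 0.177) or batch 2 (-0.56, adjusted p = 0.373). The upstream to last exon ratio of Tead1 was lower in siPaf1 by 3.09 in log2 (SE 0.84, adjusted p = 0.0103), and this call was lost without the siPaf1 library of batch 2 (-1.87, adjusted p = 0.626) or the siCdc73 library of batch 1 (-3.32, adjusted p = 0.0786) or batch 2 (-2.85, adjusted p = 0.354). Cyr61 was not called in this contrast, but it passed in 3'READS without the siCtrl library of batch 1 (-1.32, adjusted p = 0.0368) or batch 2 (-1.31, adjusted p = 0.0282) or the siPaf1 library of batch 2 (-2.19, adjusted p = 0.00512). In siPaf1 of batch 2 the Tead1 ratio rests on 1 upstream read, with a further intron 1 site under the 5% minimum left out. For Amotl2 and Lats2 no difference between the knockdowns was called.

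After siSki8, a single library whose test borrows the spread of the other groups, no member was called in any edgeR test of all libraries, with or without the batch term. With it, 5.43% of all genes were called in RNA-seq, 0.151% in 3'READS, 0.307% in 3'UTR-APA and 0.113% in CDS-APA, and Amotl2 in RNA-seq was the only member at an unadjusted p under 0.05. Amotl2 passed there without the siPaf1 library of batch 1 (-0.85, adjusted p = 0.00841) or batch 2 (-0.82, adjusted p = 0.00785) or with library size alone (-1.10, adjusted p = 0.0185). DESeq2 called none. The rule on pooled reads passed 4 of 6 members, Amotl1, Amotl2, Tead1 and Wwtr1, all lower in siSki8, in a contrast whose median over all genes was itself -0.39 and whose siCtrl reads come from both batches. Against siCtrl of its own batch, the siSki8 library was higher for Tead1 and Wwtr1 in RNA-seq. Their log2 fold changes with the batch term were 0.37 and 0.02, while those of Amotl1 and Amotl2 were -0.27 and -0.84. In the siSki8 library Amotl2 and Lats2 were below both siCtrl levels in total, while the Lats2 intronic share of 35.0% (27.1 to 43.7) was near that of the batch 1 siCtrl library (35.4%) and above that of siCtrl in its own batch (10.9%, 7.06 to 16.3). The change in the Lats2 ratio after siSki8 did not pass the test (adjusted p = 0.917 with the batch term, 1.00 without it).

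The wider Hippo pathway was read from a list of 27 other components, 26 of which were in the 3'READS table and 14 in the RNA-seq table. With the batch term 5 of 14 rose and 2 fell in RNA-seq after siPaf1, and 2 rose and 4 fell after siCdc73, beside 32.5% and 39.9% of all genes called. In 3'READS, of 24 that passed the filter on low counts, 5 rose and 3 fell after siPaf1, and 4 rose and 3 fell after siCdc73, beside 18.8% and 22.5% of all genes. The median log2 fold changes of the list were 0.37 and -0.20 in RNA-seq and 0.07 and -0.07 in 3'READS. Stk4 (Mst1), the kinase upstream of Lats1 and Lats2, rose in both assays after both knockdowns, by 1.67 in RNA-seq after siCdc73 (SE 0.25, adjusted p = 3.75e-06), and Lats1, the paralogue of Lats2, fell in RNA-seq after both and was called in 3'READS after neither. Nf2 (merlin), which activates the Hippo kinases, fell after siCdc73 (-1.37, SE 0.26, adjusted p = 0.000107), as did Rassf1 (-1.03, SE 0.24, adjusted p = 0.00115), a scaffold of these kinases. None of these calls was made without the batch term (smallest adjusted p 0.0797, of Stk4).

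Tead3, a relative of Tead1, rose after siPaf1 in RNA-seq (1.06, SE 0.25, adjusted p = 0.00162) and fell after siCdc73 (-0.80, SE 0.26, adjusted p = 0.0139), and it was higher in siPaf1 than in siCdc73 by 1.86 (SE 0.26, adjusted p = 5.14e-06). Tead4, measured in 3'READS, stood at 5.85 and 1.89 CPM in siCtrl, 18.2 and 4.23 in siPaf1, 34.3 and 12.8 in siCdc73, and 46.0 in siSki8, so that it was above siCtrl of the same batch in every knockdown library. It rose after siCdc73 by 2.59 (SE 0.34, adjusted p = 0.000150), and it also rose after siPaf1. In the 1 siSki8 library it was 4.54 higher in log2 with the batch term (SE 0.41, adjusted p = 0.000102), and adjusted p was 1.00 without it. The atypical cadherin Fat4 rose after siPaf1 in RNA-seq (1.77, SE 0.27, adjusted p = 6.0e-06) and was lower in siSki8 (-1.64, SE 0.38, adjusted p = 0.00910). In 3'READS Fat4 rose after both siPaf1 and siCdc73. Amot, the third angiomotin, fell after siPaf1 in 3'READS (-1.92, SE 0.36, adjusted p = 0.00198), as did the Lats cofactor Mob1b (-1.74, SE 0.29, adjusted p = 0.000839). Rassf1 and the kinase Taok2, the other genes named by the rule after siSki8, were not called there (0.65 and -0.92 in log2, adjusted p = 0.203 and 0.0802).

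A list of 16 further genes often used as YAP-TEAD signature targets also held genes of both directions. In RNA-seq 2 of 11 rose and 2 fell after siPaf1, and 1 rose and 3 fell after siCdc73, beside the same 32.5% and 39.9% of all genes. In 3'READS 1 of 13 rose and 2 fell after siPaf1, and 1 rose and 3 fell after siCdc73, beside 18.8% and 22.5%. These counts are near the shares of all genes, and nothing particular to the list is read from them. The median log2 fold changes were 0.14 and -0.26 in RNA-seq and 0.32 and -0.04 in 3'READS. Myof, a membrane repair protein, fell after siPaf1 in RNA-seq (-1.04, SE 0.21, adjusted p = 0.000357). It also fell after siCdc73 in RNA-seq and after siPaf1 in 3'READS. Asap1 fell in 3'READS after siPaf1 (-1.11, SE 0.27, adjusted p = 0.00954) and siCdc73 (-1.70, SE 0.27, adjusted p = 0.000548). F3, tissue factor, fell after siCdc73 (-1.96, SE 0.30, adjusted p = 5.98e-06), with 16.1 and 6.38 CPM against 69.3 and 23.2 in siCtrl. Igfbp3, an insulin-like growth factor binding protein, rose after siPaf1 (1.79, SE 0.29, adjusted p = 1.54e-05) and siCdc73 (0.71, SE 0.29, adjusted p = 0.0494), and Gadd45a rose after siCdc73 in 3'READS (1.21, SE 0.32, adjusted p = 0.0136). Foxf2 after siPaf1 had 0.98 in log2 (SE 0.37, adjusted p = 0.0736). None of the 16 was called after siSki8, where the rule named Igfbp3 (adjusted p = 0.0887), Gadd45a (0.981), Tgfb2 (0.289) and Fjx1, which was at 0 CPM in the siSki8 library and at 0.155 to 1.96 in the others. None of these calls was made without the batch term (smallest adjusted p 0.133, of Igfbp3).

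The genes whose 3'READS level ran most like that of a member over the 7 libraries were sought among the 8312 genes whose mean was 50 reads or more. For Ankrd1 they were Lclat1, Parvb and Bub1b (Pearson r of log2 CPM 0.994, 0.989 and 0.989), for Cyr61 Nono, Aup1 and Zc3h18 (0.986, 0.947 and 0.947), and for Ctgf Rbl1, Setd7 and Ndufb9 (0.987, 0.964 and 0.955). No member was among them. With 7 libraries that share their batches, and many genes searched, these values are a description only.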

How the data were processed

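C2C12 libraries were made by RNA-seq and 3'READS. Behind the deposited counts, alignment by the authors was to mm9, with Bowtie2 run locally (version not given in the sources used here), and reads with a mapping quality over 10 were kept. RNA-seq reads were counted per RefSeq transcript over the coding region. 3'READS reads with at least 2 extra 5' Ts were counted per pA site. The deposited RPKM values, which the authors computed, were not analysed.

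Genes took their transcript with the highest mean count, and 3'READS gene counts sum all sense sites. edgeR 4.0.16 (R 4.3.3) was run with TMM, filterByExpr and a prior count of 2 on all 7 libraries of an assay. Isoform tests used sites with at least 5% of a gene's reads and genes with a mean of 20 reads, comparing the isoform ratio between groups with a term per library. The main fit had no batch term, as in the study. The replicate block used the batch given by the labels, and batch 2 minus batch 1 differences of the groups correlated at 0.362 to 0.748 over genes. DESeq2 1.42.0 and other settings were alternatives. The steps were tested on simulated data. The members and lists were chosen with earlier results of these data known. List genes were named as the 2 with the smallest unadjusted p of the main fit per list, knockdown and direction, changed alike in each batch, in RNA-seq where listed there. A few further list genes were named after their values were seen (Lats1, and Tead3 after siCdc73). Reads carried no molecular identifiers, so that intervals cover counting error only. Sequences at pA sites come from NCBIM37 (mm9) with GENCODE vM1, and promoters from RefSeq.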

Additional observations from a re-analysis of the deposited data

Results flagged for a closer look

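The effects of the knockdowns differed between siPaf1 and siCdc73 for 3 members in 4 tests, each tested as the direct contrast with the batch term. Of all genes, 28.2% were called in this contrast in RNA-seq, 14.4% in 3'READS and 5.1% in CDS-APA, and 0% without the batch term. The 3'READS call of Ctgf and the calls of Axl and Tead1 were lost with some single libraries left out. Ctgf was higher in siPaf1 than in siCdc73 by 1.44 in log2 in RNA-seq and by 1.59 in 3'READS. Axl was lower in siPaf1 by 0.63 in RNA-seq (log2 fold change -0.63). The ratio of upstream to last exon reads of Tead1 was lower in siPaf1 (log2 ratio change -3.09), with 1 upstream read at the counted sites in siPaf1 of batch 2. No group held 4 or more libraries, so that no library was tested as an outlier within its group.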

How the results depend on the processing

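With the replicate block, the members called changed from 0 to 1 (siPaf1) and 2 (siCdc73) in RNA-seq, 3 and 4 in 3'READS, and 1 and 2 in CDS-APA. Beside them, the share of all genes called changed from 0% to 32.5% and 39.9% in RNA-seq and to 18.8% and 22.5% in 3'READS. In CDS-APA it changed from 2.38% and 4.13% to 23% and 23.2%. In the direct contrast the members called changed from 0 to 2, 1 and 1, beside 28.2%, 14.4% and 5.1% of all genes. The study's rule on pooled reads (over 1.4-fold and Fisher's exact p under 0.01, scaled by gene count totals) called 2, 3 and 4 RNA-seq members after siPaf1, siCdc73 and siSki8 and 2 in the direct contrast, beside 40.8%, 46.4%, 43.2% and 38.2% of all genes. Only its thresholds are the study's, which set the fold on RPKM. The pooling by group and the scaling by gene count totals were chosen here. It takes no account of the spread between libraries. DESeq2 called 1 RNA-seq member after siCdc73, beside 6.55% of all genes. A minimum mean of 5 reads called 1 CDS-APA member after each of siPaf1 and siCdc73. No share of all genes is given beside this count, so that nothing particular to the members is read from it.

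With the replicate block, leaving out each library in turn gave 1 to 3 RNA-seq members after siPaf1, 0 to 1 after siSki8 and 1 to 3 in the direct contrast, 0 to 3 3'READS members after siPaf1, 2 to 7 after siCdc73 and 1 to 2 in the direct contrast, 0 to 1 3'UTR-APA members after siCdc73, and 1 to 2 CDS-APA members after siCdc73 and 0 to 1 in the direct contrast. Without the block CDS-APA gave 0 to 1 after siCdc73. With the block, sites of the last exon alone gave 2 3'READS members after siCdc73, beside 1268 higher and 1392 lower of all 11968 genes. With library size alone, Amotl2 in RNA-seq after siSki8 was at -1.10 in log2. The share of all genes called also changed with the library left out, so that nothing particular to the members is read from the ranges above.

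The rise of Lats2 reversed where sites of the last exon alone were counted, because the intronic site is then left out: -1.02 after siPaf1 and -0.91 after siCdc73 without the block, and -1.01 and -0.90 with it. Ankrd1 after siCdc73 without the block ranged from -1.22 to 0.0073 with single libraries left out. Of 441 values of printed fold changes under alternatives, these 5 changed direction, 367 kept both direction and side of the threshold, 39 newly passed and 30 no longer passed. Of 1291 values of fold changes whose main value is not printed, 130 changed sign and 21 passed the threshold. Library size alone moved the median log2 fold change of all genes to -0.18 (siCdc73) and -0.35 (siSki8) in RNA-seq and to 0.16 (siPaf1) in 3'READS. The cause of the other shifts was not tested. Alternatives with the replicate block other than the block itself were chosen after seeing the data. Cyr61, Ctgf, Tead1 and Lats2 rest on fewer 3' end reads, summed over all libraries, than the other members, which limits their precision.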
